A study of Mus musculus with 6 samples.

Results

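The enzymes that build cholesterol and fatty acids, with the genes that regulate this synthesis or carry sterols, were followed in newborn mouse pancreas with and without Spink3. The set has 34 genes, chosen by name, of the 24165 genes that the array's probes name. Earlier results of these data were known at that choice. Counts of members set beside shares of all genes are therefore descriptions, not tests of a list chosen blind. It holds 18 sterol synthesis enzymes, 7 fatty acid synthesis enzymes, 6 regulators or sterol carriers, and 3 genes of sterol efflux. The 34 genes had 52 probes, and 31 of them had a probe bright enough to be tested, that is, one well above background on each array of 1 or more genotypes. These 31 were above background on all 6 arrays.

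C57BL/6N mice gave RNA of the whole pancreas on postnatal day 0.5, with 2 arrays for each of 3 genotypes. Spink3-/-XKI/+ lacks both Spink3 alleles and carries 1 XKI allele, which the labels do not spell out further; Spink3-/- lacks both alleles; Spink3+/+ is the control. Spink3 encodes a trypsin inhibitor of acinar cells, and by the series' design nonapoptotic death with autophagy affects the acinar cells of Spink3-/- throughout, but spares part of them in Spink3-/-XKI/+. Nothing in the labels says that the arrays of a genotype came from separate animals, so p-values measure the spread between these arrays, which may be technical.

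Levels are log2 signals over the 75th percentile of the same array, so a level of 0 is that percentile. The percentile lay between 111 and 155 signal units, and between 42.4% and 50.8% of spots on an array were well above background. Spink3, which RefSeq lists as Spink1, had levels of 2.64 and 2.34 in Spink3-/-XKI/+ and 3.25 and 2.95 in Spink3-/-, against 9.84 and 10.26 in Spink3+/+, so it was low in both genotypes labelled as lacking it. The 12 acinar markers were above background, and their summed level was 12990 to 13390 times the percentile in Spink3-/-XKI/+, 11230 to 15070 in Spink3-/- and 12350 to 14040 in Spink3+/+. All arrays shared 1 slide and 1 scan, but lay in different rows of the slide: both Spink3+/+ arrays and replicate 1 of Spink3-/- in row 1, replicate 2 of Spink3-/- and both Spink3-/-XKI/+ arrays in row 2. Spink3-/-XKI/+ and Spink3+/+ thus share no row, and genotype and row cannot be told apart in their direct difference. In these bulk samples, fewer cells of a type and less RNA per cell cannot be told apart either.

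As background, cells make cholesterol from acetyl-CoA by way of mevalonate, isoprenoid diphosphates, squalene and lanosterol. When sterols in the endoplasmic reticulum are low, SCAP escorts the SREBP transcription factors to the Golgi, where they are cut and released to switch on these enzymes, while INSIG proteins hold SCAP back when sterols are plentiful. Insig1 is itself a target of SREBP, and SREBPs act at promoters together with NF-Y and Sp1. LXR receptors respond to oxysterols by raising Srebf1 and the efflux transporters Abca1 and Abcg1. Acinar cells carry an extensive endoplasmic reticulum, where most of the sterol enzymes reside.

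The promoters of 6 members are shown. Idi1, Msmo1, Sc5d, Dhcr7 and Insig1 had the lowest limma p-values between Spink3-/-XKI/+ and Spink3+/+ among members with a promoter in the RefSeq table, which held none for Fdps. Hmgcs1 was added after its match to the sterol response element was seen. Each line gives the 250 bases before the transcription start in 5′ to 3′ direction of the gene, from RefSeq for GRCm38.p6. Capitals mark the core of the sterol response element (TCACNCCAC), the NF-Y motif (CCAAT, or ATTGG on the other strand) and the Sp1 motif (GGGCGG, or CCGCCC on the other strand). The windows are Hmgcs1 chr13:119690101-119690350 (plus strand), Idi1 chr13:8885356-8885605 (plus), Msmo1 chr8:64733579-64733828 (minus), Sc5d chr9:42264301-42264550 (minus), Dhcr7 chr7:143822917-143823166 (plus, the first of 3 windows) and Insig1 chr5:28071162-28071411 (plus).
Hmgcs1: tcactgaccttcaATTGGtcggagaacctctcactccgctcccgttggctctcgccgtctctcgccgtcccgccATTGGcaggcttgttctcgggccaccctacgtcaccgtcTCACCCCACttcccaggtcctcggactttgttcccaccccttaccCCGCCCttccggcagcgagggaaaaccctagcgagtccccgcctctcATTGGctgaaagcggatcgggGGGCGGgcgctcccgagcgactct
Idi1: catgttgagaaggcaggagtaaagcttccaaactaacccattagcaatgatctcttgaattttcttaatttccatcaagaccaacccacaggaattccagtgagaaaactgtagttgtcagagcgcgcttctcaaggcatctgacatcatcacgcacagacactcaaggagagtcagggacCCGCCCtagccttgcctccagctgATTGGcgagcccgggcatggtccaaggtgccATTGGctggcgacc
Msmo1: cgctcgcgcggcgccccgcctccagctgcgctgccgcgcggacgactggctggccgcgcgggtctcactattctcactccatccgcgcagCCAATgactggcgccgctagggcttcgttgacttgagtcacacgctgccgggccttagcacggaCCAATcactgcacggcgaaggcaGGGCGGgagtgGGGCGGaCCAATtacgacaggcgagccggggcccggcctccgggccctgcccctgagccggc
Sc5d: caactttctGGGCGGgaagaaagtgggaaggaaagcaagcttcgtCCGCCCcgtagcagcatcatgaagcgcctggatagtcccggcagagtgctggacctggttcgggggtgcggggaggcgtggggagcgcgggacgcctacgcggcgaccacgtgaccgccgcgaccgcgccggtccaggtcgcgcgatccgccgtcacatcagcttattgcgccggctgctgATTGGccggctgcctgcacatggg
Dhcr7: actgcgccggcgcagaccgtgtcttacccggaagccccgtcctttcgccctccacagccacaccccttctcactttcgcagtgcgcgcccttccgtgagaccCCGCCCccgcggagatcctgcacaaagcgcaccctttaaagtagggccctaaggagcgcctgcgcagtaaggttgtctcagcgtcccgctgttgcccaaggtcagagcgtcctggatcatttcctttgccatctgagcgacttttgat
Insig1: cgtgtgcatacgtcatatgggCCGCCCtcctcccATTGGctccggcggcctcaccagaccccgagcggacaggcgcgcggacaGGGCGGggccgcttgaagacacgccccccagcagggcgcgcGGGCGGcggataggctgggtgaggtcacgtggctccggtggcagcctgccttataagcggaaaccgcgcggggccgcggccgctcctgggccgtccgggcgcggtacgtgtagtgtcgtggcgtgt

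Windows from 250 bases before to 50 after the start were found for 27 of the 34 members, and both strands were searched. The NF-Y motif CCAAT was present in 22 of the 27 members and in 14 of the 15 sterol enzymes with a window, against 41.1% of 27025 genes. The Sp1 motif GGGCGG was present in 23 of the 27 members and again in 14 of the 15 sterol enzymes, against 38.2% of genes. The sterol response element core TCACNCCAC matched 1 member, Hmgcs1, 137 bases before the start, against 1.44% of genes. None of these motifs contains another, and a match describes the letters in the window, not a bound site. In the shown stretches, Hmgcs1 and Msmo1 each hold 3 NF-Y and 2 Sp1 matches, Idi1 holds 2 NF-Y matches and 1 Sp1 match, Sc5d holds 1 NF-Y match and 2 Sp1 matches, Insig1 holds 1 NF-Y match and 3 Sp1 matches, and the shown Dhcr7 window holds 1 Sp1 match.

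Sterol synthesis transcripts stood lower in Spink3-/-XKI/+ than in Spink3+/+. Of the 17 enzymes tested, 16 had a lower mean level, with a median log2 difference of -0.59, while the median over all 14169 genes tested was 0.04 and 43.7% of all genes had a difference below 0. In 14 of the 17 both Spink3-/-XKI/+ arrays lay below both Spink3+/+ arrays, compared with 16.1% of all genes, and in 0 both lay above, compared with 26.0%. None passed the test: limma with Benjamini-Hochberg adjustment over all genes called 0 of the 31 members in this comparison, against 0.00706% of all genes, which is 1 gene, Spink3. At an unadjusted p under 0.05, 7 of the 17 sterol enzymes were lower and 0 higher, against 2.54% of all genes lower and 5.03% higher. With 2 arrays against 2, an exact permutation test of a single gene cannot give a two-sided p below 0.333.

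Most sterol enzymes were also lower in Spink3-/-XKI/+ than in Spink3-/-. Spink3-/-XKI/+ minus Spink3-/- had a median of -0.64 with 16 enzymes lower, where 42.7% of all genes were. In 12 enzymes both Spink3-/-XKI/+ arrays lay below both Spink3-/- arrays, against 13.1% of all genes, and in 0 above, against 21.4%. At an unadjusted p under 0.05, 10 were lower and 0 higher, against 2.43% and 4.77% of all genes. Limma called 0 of the 31 members here, against 0.00706% of all genes. In Spink3-/- minus Spink3+/+ the median was 0.09, with 12 enzymes higher and 5 lower, where 50.9% of all genes were lower. There 1 enzyme had both arrays lower and 1 both higher, against 16.6% and 16.2% of all genes, and 0 of the 17 had an unadjusted p under 0.05, against 2.33% lower and 2.73% higher. Limma called 0 of the 31 members in it, against 0.0353% of all genes, 0.0141% lower and 0.0212% higher. Each of these comparisons shares arrays with the other two. Counted over arrays, both Spink3-/-XKI/+ arrays lay below all 4 other arrays for 11 of the 17 enzymes, against 6.04% of all genes, and above all 4 for 0, against 11.5%.

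**Figure D1:**
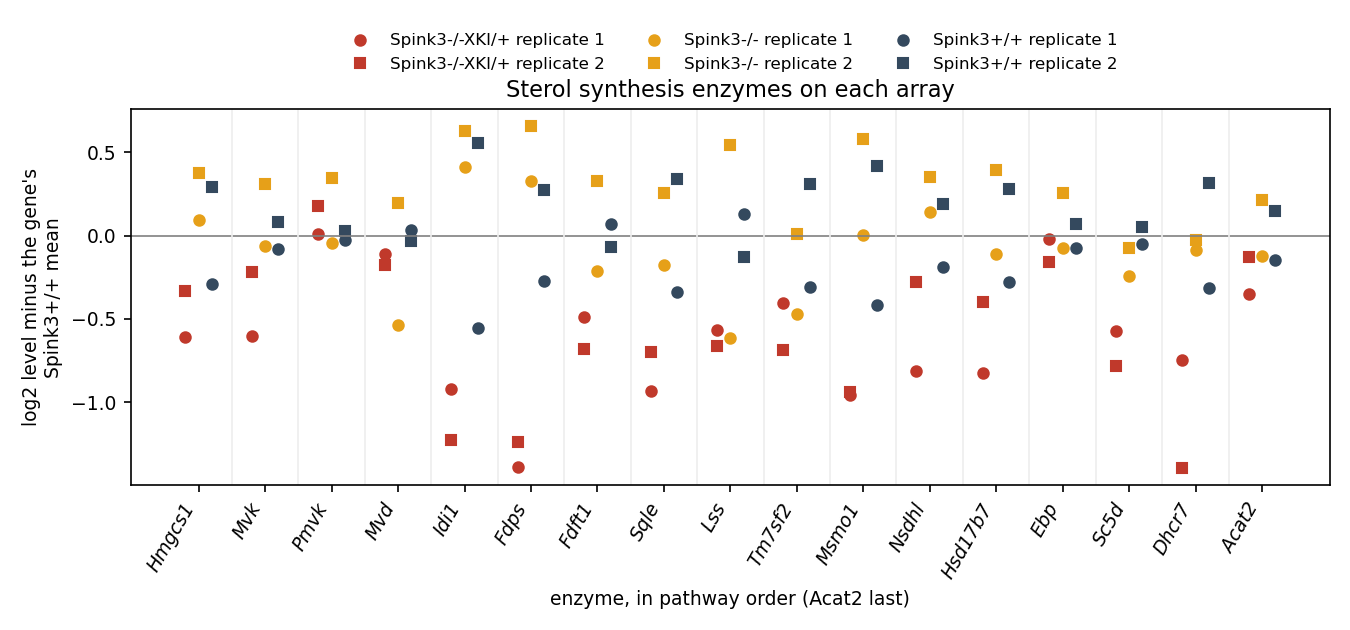
Log2 level of each sterol synthesis enzyme on each of the 6 arrays, minus that gene's mean over the Spink3+/+ arrays (y axis). Enzymes are in pathway order (x axis), except for Acat2, which is placed last. Circles are replicate 1 and squares replicate 2; the red Spink3-/-XKI/+ points are the lowest for 11 of the 17 enzymes, and those of Pmvk, Mvd, Ebp and Acat2 lie close to the other genotypes.

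The farthest apart of the early enzymes were those that make and join isoprenoid units. Fdps, which makes farnesyl diphosphate and is probed at chr3:88897549-88897608 of mm9, had levels of 3.24 and 3.38 in Spink3-/-XKI/+ and 4.95 and 5.28 in Spink3-/-, against 4.35 and 4.90 in Spink3+/+. The Spink3-/-XKI/+ arrays lay about a log2 unit or more below each of the other arrays. The log2 difference was -1.31 from Spink3+/+ (SE 0.24, 95% interval -1.90 to -0.72, limma adjusted p = 0.317) and -1.80 from Spink3-/- (SE 0.24, interval -2.39 to -1.22, limma adjusted p = 0.238). By unadjusted p, Fdps ranked 68 of 14169 genes in the first of these and 15 in the second.

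Idi1, the isomerase that turns isopentenyl into dimethylallyl diphosphate, had -0.11 and -0.41 in Spink3-/-XKI/+ and 1.23 and 1.44 in Spink3-/-, against 0.26 and 1.37 in Spink3+/+. Its Spink3-/-XKI/+ arrays were the lowest of all, and the Spink3+/+ arrays differed by over a log2 unit from each other. The difference was -1.07 from Spink3+/+ (SE 0.37, limma adjusted p = 0.606) and -1.59 from Spink3-/- (SE 0.37, limma adjusted p = 0.489). Hmgcs1, which condenses acetyl-CoA units ahead of mevalonate, had 2.76 and 3.03 in Spink3-/-XKI/+ and 3.46 and 3.74 in Spink3-/-, against 3.07 and 3.65 in Spink3+/+. Its lowest Spink3+/+ array was only just above the Spink3-/-XKI/+ arrays, and the differences were -0.47 and, from Spink3-/-, -0.70.

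Mvk, mevalonate kinase, had 2.80 and 3.19 in Spink3-/-XKI/+ and 3.34 and 3.71 in Spink3-/-, against 3.32 and 3.48 in Spink3+/+. Its second probe gave a like difference from Spink3+/+, -0.42 beside -0.41. At the next steps of the mevalonate pathway the Spink3-/-XKI/+ arrays were not the lowest of all. Pmvk, which adds the second phosphate, had 3.52 and 3.69 in Spink3-/-XKI/+ and 3.47 and 3.86 in Spink3-/-, against 3.48 and 3.54 in Spink3+/+, a difference of 0.09 (95% interval -0.39 to 0.57). Mvd, the decarboxylase that yields isopentenyl diphosphate, had 0.42 and 0.35 in Spink3-/-XKI/+, against 0.56 and 0.50 in Spink3+/+. These did not overlap, though the difference was only -0.14, and the Spink3-/- arrays, at -0.01 and 0.73, enclosed all the others. Acat2, which makes acetoacetyl-CoA in the cytosol, differed by -0.24 with overlapping arrays.

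Of the enzymes from squalene to lanosterol, Sqle and Fdft1 had their lowest values in Spink3-/-XKI/+. Sqle, squalene epoxidase, had 2.33 and 2.56 in Spink3-/-XKI/+ and 3.08 and 3.51 in Spink3-/-, against 2.92 and 3.60 in Spink3+/+, a difference from Spink3+/+ of -0.82 (SE 0.28, limma adjusted p = 0.606). Fdft1, squalene synthase, had 0.27 and 0.08 in Spink3-/-XKI/+ and 0.55 and 1.09 in Spink3-/-, against 0.83 and 0.69 in Spink3+/+. Again the Spink3-/-XKI/+ arrays were below all the others, and the difference from Spink3+/+ was -0.59. Lss, lanosterol synthase, had -2.21 and -2.31 in Spink3-/-XKI/+ and -2.26 and -1.10 in Spink3-/-, against -1.51 and -1.77 in Spink3+/+. Its Spink3-/- replicates lay far apart, 1 among the Spink3-/-XKI/+ arrays and the other the highest of all.

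Among the enzymes that turn lanosterol into cholesterol, Dhcr7 and Msmo1 lay farthest from the other genotypes. Dhcr7, which catalyses the final reduction to cholesterol, had -1.62 and -2.27 in Spink3-/-XKI/+ and -0.96 and -0.90 in Spink3-/-, against -1.19 and -0.56 in Spink3+/+. All 4 other arrays lay above the Spink3-/-XKI/+ arrays, and the difference was -1.07 from Spink3+/+ (SE 0.30, limma adjusted p = 0.509) and -1.01 from Spink3-/- (limma adjusted p = 0.554). Msmo1, a methylsterol oxidase that helps strip methyl groups from the sterol nucleus, had 1.74 and 1.76 in Spink3-/-XKI/+ and 2.70 and 3.28 in Spink3-/-, against 2.28 and 3.12 in Spink3+/+. Both Spink3-/-XKI/+ values were nearly equal and lay below all the others. The difference was -0.95 from Spink3+/+ (SE 0.33, limma adjusted p = 0.606) and -1.24 from Spink3-/- (limma adjusted p = 0.552).

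Sc5d, a sterol desaturase, had 0.58 and 0.37 in Spink3-/-XKI/+ and 0.91 and 1.08 in Spink3-/-, against 1.10 and 1.21 in Spink3+/+, a difference from Spink3+/+ of -0.68 (SE 0.17, limma adjusted p = 0.478). Its replicates were close together in each genotype. Nsdhl, a dehydrogenase of the demethylation steps, had -2.25 and -1.72 in Spink3-/-XKI/+ and -1.30 and -1.09 in Spink3-/-, against -1.63 and -1.25 in Spink3+/+. Hsd17b7, the ketoreductase of the same steps, had -2.32 and -1.90 in Spink3-/-XKI/+ and -1.61 and -1.11 in Spink3-/-, against -1.78 and -1.22 in Spink3+/+. Both had the Spink3-/-XKI/+ arrays lowest, with differences from Spink3+/+ of -0.55 for Nsdhl and -0.61 for Hsd17b7, but a second Hsd17b7 probe, above background on 5 arrays, differed by -0.03 only.

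Tm7sf2, a sterol reductase, had 3.21 and 2.93 in Spink3-/-XKI/+ and 3.15 and 3.63 in Spink3-/-, against 3.31 and 3.93 in Spink3+/+. Its Spink3-/-XKI/+ arrays were below both Spink3+/+ arrays but not below both Spink3-/- arrays, and its 2 probes differed from Spink3+/+ by -0.54 and -0.70. Ebp, a sterol isomerase, had 4.21 and 4.07 in Spink3-/-XKI/+ and 4.15 and 4.48 in Spink3-/-, against 4.15 and 4.30 in Spink3+/+, a difference of -0.09 (95% interval -0.55 to 0.37). Cyp51, which removes the first methyl group of lanosterol, was not well above background on any array and was not tested. The route as a whole held enzymes with low levels in Spink3-/-XKI/+ at its isoprenoid, squalene and late sterol steps, and enzymes with overlapping levels, Pmvk, Ebp and Acat2, among them.

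**Figure D2:**
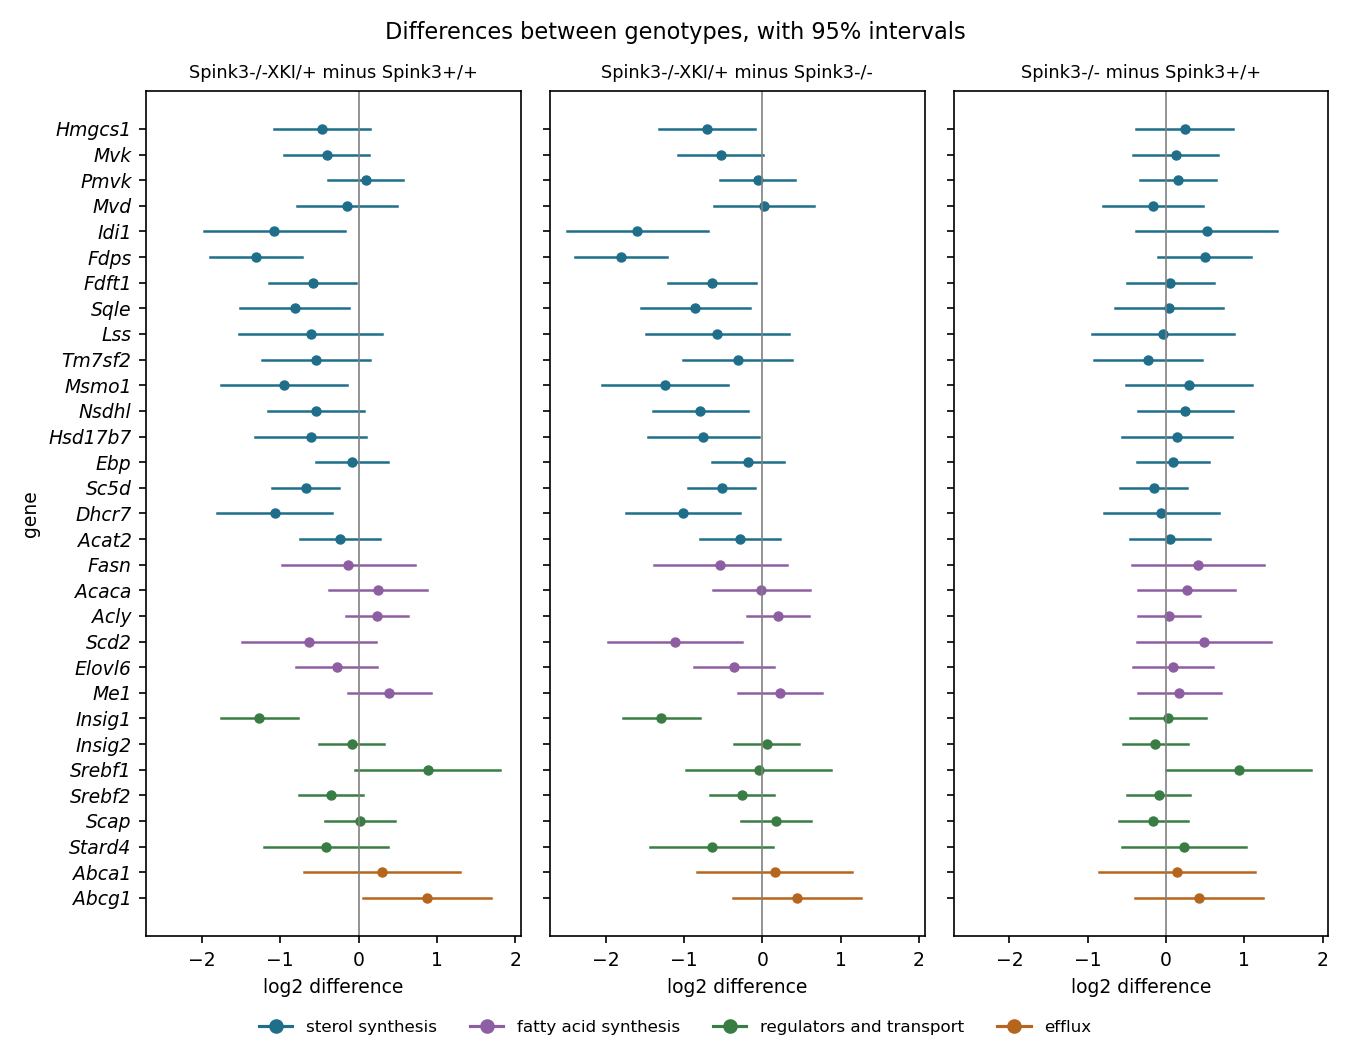
Log2 difference (x axis) of each of the 31 tested members (y axis) in Spink3-/-XKI/+ minus Spink3+/+, Spink3-/-XKI/+ minus Spink3-/- and Spink3-/- minus Spink3+/+, with limma's 95% intervals, which are not adjusted for the number of genes. Most sterol enzymes and Insig1 lie left of 0 in the panels with Spink3-/-XKI/+, from -1.31 to 0.09 for the enzymes against Spink3+/+, and near 0 in Spink3-/- minus Spink3+/+.

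The 6 regulators and carriers had no common direction: 4 were lower and 2 higher in Spink3-/-XKI/+ than in Spink3+/+, with a median of -0.22, where 43.7% of all genes were lower. Of these 6, 1, Insig1, was lower at an unadjusted p under 0.05, against 2.54% of all genes. Insig1, the sterol-sensing retention protein of the endoplasmic reticulum, had the lowest unadjusted p of the members against Spink3+/+. Its levels, from a probe at chr5:28404246-28404305 of mm9, were 0.14 and -0.19 in Spink3-/-XKI/+ and 1.12 and 1.40 in Spink3-/-, against 1.30 and 1.17 in Spink3+/+. The Spink3-/-XKI/+ arrays stood apart from the other 4, which were close together. The log2 difference was -1.27 from Spink3+/+ (SE 0.20, 95% interval -1.76 to -0.78, limma adjusted p = 0.276) and -1.29 from Spink3-/- (SE 0.20, interval -1.78 to -0.80, limma adjusted p = 0.238), and Insig1 ranked 36 of 14169 genes in each. Spink3-/- minus Spink3+/+ was 0.02 (interval -0.47 to 0.52).

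Insig2, its paralog, had 0.56 and 0.64 in Spink3-/-XKI/+ and 0.65 and 0.44 in Spink3-/-, against 0.74 and 0.62 in Spink3+/+. These levels overlapped and gave a difference from Spink3+/+ of -0.09 (95% interval -0.50 to 0.33), while a dimmer Insig2 probe gave -0.69. Srebf2, which encodes the SREBP that mainly drives sterol genes, had -1.65 and -1.73 in Spink3-/-XKI/+ and -1.35 and -1.51 in Spink3-/-, against -1.41 and -1.27 in Spink3+/+. Its Spink3-/-XKI/+ arrays were the lowest of all, with a difference of -0.36 (95% interval -0.76 to 0.05). Scap, the escort protein, differed by 0.02 (95% interval -0.43 to 0.46) with overlapping arrays.

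Srebf1, which encodes the SREBP that mainly drives fatty acid genes, stood higher in both Spink3-deficient genotypes. Its levels were -1.76 and -0.63 in Spink3-/-XKI/+ and -1.24 and -1.05 in Spink3-/-, against -1.87 and -2.28 in Spink3+/+. Neither deficient genotype overlapped Spink3+/+, although replicate 1 of Spink3-/-XKI/+ lay close to it. Both arrays were likewise higher than Spink3+/+ for 26.0% of all genes in Spink3-/-XKI/+ and for 16.2% in Spink3-/-. The difference was 0.88 for Spink3-/-XKI/+ (SE 0.38, limma adjusted p = 0.683) and 0.93 for Spink3-/- (SE 0.38, limma adjusted p = 0.985). Srebf1 was the only 1 of the 31 members with an unadjusted limma p under 0.05 in Spink3-/- minus Spink3+/+. At that p, 2.73% of all genes were higher there. Stard4, a cytosolic sterol carrier, had 1.37 and 1.84 in Spink3-/-XKI/+ and 1.91 and 2.59 in Spink3-/-, against 1.74 and 2.30 in Spink3+/+, with differences of -0.41 from Spink3+/+ and -0.65 from Spink3-/-.

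**Figure D3:**
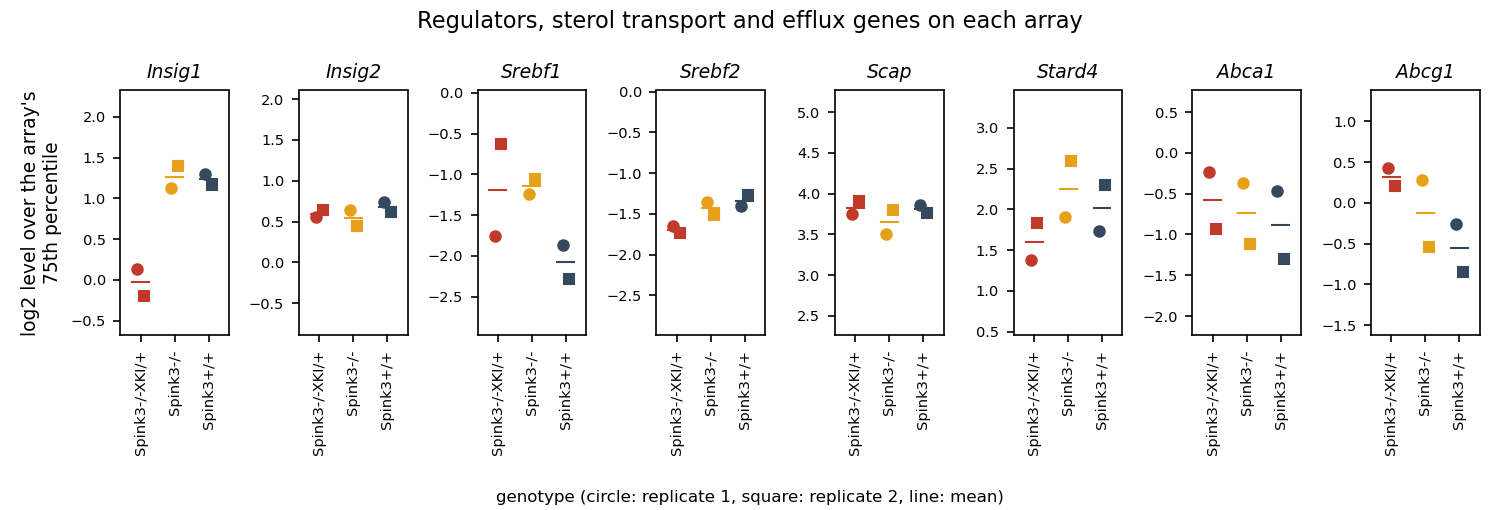
Level (y axis, log2 signal over the 75th percentile of the array, the same span in each panel) of the regulators, the sterol carrier and the efflux genes on each array, by genotype (x axis); circles are replicate 1, squares replicate 2 and lines the mean. Insig1 is lower on both Spink3-/-XKI/+ arrays, at 0.14 and -0.19, than on the other arrays, Srebf1 is lowest on the Spink3+/+ arrays, and Insig2 and Scap overlap between genotypes.

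Fatty acid synthesis enzymes did not stand together. Of the 6 tested, 3 were lower and 3 higher in Spink3-/-XKI/+ than in Spink3+/+, with a median of 0.05, where 43.7% of all genes were lower. An unadjusted limma p under 0.05 was reached by 0 of the 6, against 2.54% of all genes lower and 5.03% higher. Scd2, a desaturase that introduces a double bond into stearoyl-CoA, had 1.77 and 1.26 in Spink3-/-XKI/+ and 3.01 and 2.25 in Spink3-/-, against 1.84 and 2.45 in Spink3+/+. Its Spink3-/-XKI/+ arrays were the lowest, though the higher of them was close to the lower Spink3+/+ array. The difference was -0.63 from Spink3+/+ (SE 0.35, limma adjusted p = 0.744) and -1.12 from Spink3-/- (SE 0.35, limma adjusted p = 0.577). Against Spink3-/- its unadjusted p was under 0.05, as were those of 2.43% of all genes in the lower direction.

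Acly, which supplies cytosolic acetyl-CoA from citrate, had 4.90 and 5.05 in Spink3-/-XKI/+ and 4.76 and 4.79 in Spink3-/-, against 4.76 and 4.71 in Spink3+/+, so that both Spink3-/-XKI/+ arrays were the highest. The difference from Spink3+/+ was 0.24 (95% interval -0.15 to 0.63), and 0.59 with its second probe. Me1, malic enzyme, a source of NADPH, had 1.36 and 1.72 in Spink3-/-XKI/+ and 1.12 and 1.52 in Spink3-/-, against 1.13 and 1.17 in Spink3+/+, a difference of 0.39 that was -0.04 and 0.16 with its other probes. Acaca, acetyl-CoA carboxylase, Elovl6, a fatty acid elongase, and Fasn, fatty acid synthase, overlapped between Spink3-/-XKI/+ and Spink3+/+, with differences of 0.25, -0.28 and -0.13.

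In Spink3-/- minus Spink3+/+ all 6 tested fatty acid enzymes had a higher mean level, where 50.9% of all genes were lower. Differences ran from 0.04 for Acly to 0.49 for Scd2, with a median of 0.22. Only Acly had both arrays higher, where 16.2% of all genes did. An unadjusted limma p under 0.05 was reached by 0 of the 6, against 2.33% of all genes lower and 2.73% higher. Scd1, the other stearoyl-CoA desaturase, was above background on 2 arrays only, replicate 1 of Spink3-/-XKI/+ at 0.84 and replicate 1 of Spink3-/- at -1.38. On the remaining arrays it was not well above background, so it was not tested.

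Abcg1, a transporter that exports sterols to lipoproteins, had 0.43 and 0.21 in Spink3-/-XKI/+ and 0.28 and -0.54 in Spink3-/-, against -0.25 and -0.85 in Spink3+/+. Its Spink3-/-XKI/+ arrays were above both Spink3+/+ arrays but overlapped those of Spink3-/-. The difference from Spink3+/+ was 0.87 (SE 0.34, limma adjusted p = 0.641). Unadjusted, its p was under 0.05, as were those of 5.03% of all genes in the higher direction. Abca1, which loads cholesterol onto apolipoproteins, had -0.23 and -0.93 in Spink3-/-XKI/+ and -0.36 and -1.11 in Spink3-/-, against -0.47 and -1.30 in Spink3+/+. Within each genotype its replicates lay further apart than the genotype means, and its difference from Spink3+/+ was 0.30 (95% interval -0.69 to 1.29). Mylip, a ligase that marks lipoprotein receptors for degradation, passed the filter with neither of its probes.

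The other genes of sterol and fatty acid metabolism that were counted, 34 in all and 28 tested, had medians near 0. In Spink3-/-XKI/+ minus Spink3+/+ the median was 0.01 with 12 lower and 16 higher, where 43.7% of all genes were lower. At an unadjusted p under 0.05, 4 of the 28 were lower and 1 higher there, against 2.54% and 5.03% of all genes. Both Spink3-/-XKI/+ arrays were the lowest of the 6 for 5 of the 28 and the highest for 3, against 6.04% and 11.5% of all genes. The median was -0.01 in Spink3-/-XKI/+ minus Spink3-/-, with 1 lower and 2 higher at that p, against 2.43% and 4.77% of all genes. It was 0.05 in Spink3-/- minus Spink3+/+, with 2 lower and 0 higher, against 2.33% and 2.73%. Limma called 0 of the 28 in any of the 3 comparisons. Acss2, which makes acetyl-CoA from acetate, had -0.63 and -0.79 in Spink3-/-XKI/+ and -0.28 and -0.36 in Spink3-/-, against -0.25 and 0.20 in Spink3+/+. Both Spink3-/-XKI/+ arrays were below all the others, and the difference from Spink3+/+ was -0.68 (SE 0.21, limma adjusted p = 0.548).

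Others of the list stood higher. Nr1h3, which encodes an LXR receptor, differed by 0.73 in Spink3-/-XKI/+ from Spink3+/+ (SE 0.31, limma adjusted p = 0.682), and Soat2, which esterifies cholesterol, by 0.50 (SE 0.20, limma adjusted p = 0.658).

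The sterol enzymes differed between replicates of a genotype as well. Their median over genes, taken against the Spink3+/+ mean, was -0.60 and -0.66 in Spink3-/-XKI/+ and -0.09 and 0.33 in Spink3-/-, against -0.19 and 0.19 in Spink3+/+. Replicate 2 was above replicate 1 for 9 of 17 enzymes in Spink3-/-XKI/+ and for 17 of 17 in Spink3-/-, against 14 of 17 in Spink3+/+. Over all genes tested these shares were 51.7% in Spink3-/-XKI/+ and 55.3% in Spink3-/-, against 56.2% in Spink3+/+. Both Spink3-/-XKI/+ medians lay below those of the other arrays.

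Slide row 2 held both Spink3-/-XKI/+ arrays, with the lowest sterol medians, and Spink3-/- replicate 2, with the highest. Within row 1, Spink3-/- replicate 1 minus the Spink3+/+ mean had a median of -0.09 over the sterol enzymes, with 12 of 17 lower, against 54.8% of all genes. Within row 2, the Spink3-/-XKI/+ mean minus Spink3-/- replicate 2 had a median of -0.90 with 17 of 17 lower, against 47.7% of all genes, and Insig1 differed there by -1.43. Between rows, Spink3-/- replicate 2 minus replicate 1 had a median of 0.37 with 17 of 17 higher, against a median of 0.05 over all genes, of which 44.6% were lower. With the row as a block in the fit, the sterol median was -1.02 in Spink3-/-XKI/+ minus Spink3+/+ and -0.90 in Spink3-/-XKI/+ minus Spink3-/-, and no member was called. Each comparison within a row rests on 1 Spink3-/- array. The row block takes its row term from the Spink3-/- arrays alone, so slide row and the spread between replicates cannot be told apart.

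**Figure D4:**
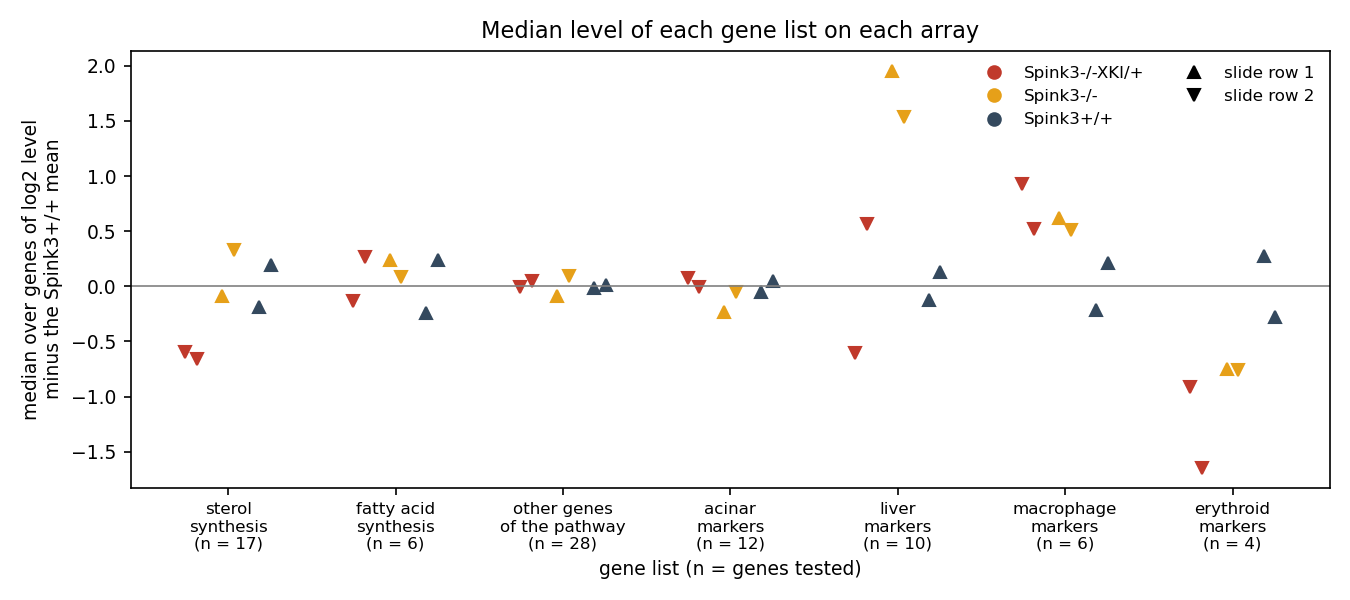
Median over genes of the log2 level minus the gene's Spink3+/+ mean (y axis) for the synthesis enzymes, the other pathway genes and 4 marker lists (x axis, n is the number of genes tested), 1 point for each array, coloured by genotype and shaped by slide row. The sterol enzymes are lowest on the Spink3-/-XKI/+ arrays, at -0.60 and -0.66, the liver markers are highest on the Spink3-/- arrays, and the erythroid markers are lowest on the Spink3-/-XKI/+ arrays.

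Markers of other cell types also differed between these arrays, though limma called none of them. All 4 tested erythroid markers were lower in Spink3-/-XKI/+ than in Spink3+/+, with a median of -1.25 and a summed level of 267 to 290 times the percentile, against 371 to 819 in Spink3+/+; in Spink3-/- it was 397 to 417. All 6 macrophage markers were higher in Spink3-/-XKI/+, with a median of 0.72 and a summed level of 45.2 to 54.0, against 33.1 to 37.6 in Spink3+/+; in Spink3-/- it was 40.4 to 43.2. Liver markers, from a tissue with high sterol synthesis, had a median of 0.10 in Spink3-/-XKI/+ minus Spink3+/+ (4 of 10 lower) but of -1.56 in Spink3-/-XKI/+ minus Spink3-/- (9 of 10 lower), with summed levels of 63.8 to 79.0 in Spink3-/-XKI/+, 108 to 116 in Spink3-/- and 55.5 to 72.1 in Spink3+/+. Each sum follows the brightest genes of its list most, and on every array the brightest were Hba-a1, Csf1r and Trf. The part of erythroid, macrophage and liver cells in the sterol differences was not tested.

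The 12 acinar markers had medians of 0.04 in Spink3-/-XKI/+ minus Spink3+/+, with 5 lower, 0.09 in Spink3-/-XKI/+ minus Spink3-/- and -0.13 in Spink3-/- minus Spink3+/+. Among them, the pancreatic lipase Pnlip had log2 levels of 0.96 and 0.36 in Spink3-/-XKI/+ and -1.95 and -1.73 in Spink3-/-, against -0.07 and -0.79 in Spink3+/+. The 3 genotypes did not overlap. Pnlip differed by 1.09 in Spink3-/-XKI/+ minus Spink3+/+ (limma adjusted p = 0.525), by 2.50 in Spink3-/-XKI/+ minus Spink3-/- (limma adjusted p = 0.224, rank 12 of 14169 genes) and by -1.41 in Spink3-/- minus Spink3+/+ (limma adjusted p = 0.734). Of the 8 fat cell markers, 6, including the defining Adipoq and Plin1, did not pass the filter on dim probes, and the other 2 had a median of -0.27 in Spink3-/-XKI/+ minus Spink3+/+. The medians in Spink3-/-XKI/+ minus Spink3+/+ were 0.19 for the 7 endocrine markers, 0.13 for the 5 fibroblast markers and -0.07 for the 4 tested endothelial markers. Limma called 0 genes of these marker lists in any comparison. At an unadjusted p under 0.05 in Spink3-/-XKI/+ minus Spink3+/+, 4 of 4 erythroid markers, the endothelial Cdh5 (-0.86) and the fat cell marker Fabp4 (-0.59) were lower, and 2 of 6 macrophage markers, Pnlip and the endocrine Chga (0.53) were higher. At that p, 6 of 10 liver markers were lower in Spink3-/-XKI/+ than in Spink3-/-, and Pnlip, Chga (0.53) and the fibroblast marker Pdgfra (0.53) were higher. In Spink3-/- minus Spink3+/+, 6 of 10 liver markers and 2 of 6 macrophage markers were higher at that p, and Pnlip and 1 erythroid marker, Slc4a1, were lower. The shares of all genes at that p are those given above for each comparison.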

How the data were processed

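Total RNA of whole newborn pancreas was hybridised to 1-colour Agilent mouse arrays, 1 array per sample. The deposited intensity values come from Agilent Feature Extraction 10.7.3.1, per the submitters' processing notes. Per the file headers the program subtracted background and removed spatial trends, and the signals are linear. Dim spots can hold a surrogate value. Nothing in the file headers made arrays comparable with each other. The deposited series values were identical to these signals and so gave no separate fit. The deposited flags, 0 or 1 per spot, name spots well above background and outliers; their unit is a mark, not a level. Array number limits the precision.

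From these values, levels were computed as log2 signal minus log2 of the 75th percentile of that array's 59305 spots other than controls. Outlier spots were left out, no spot was saturated, and spots of a probe were averaged, giving 55681 probes. The filter kept probes well above background on each array of 1 or more genotypes (24820 probes, 44.6%). RefSeq (49997 genes) named 26762 probes through their accession, 3819 through a current and 639 through an outdated symbol. The file's own name was used for 2044, and 22417 had none. The brightest kept probe stood for a gene, and 8 members had more than 1 probe kept. Genotypes were compared in limma 3.58.1 (R 4.3.3 with the data.table package, version 1.17.8; lmFit, contrasts.fit, eBayes, two-sided) on all 6 arrays with 3 residual degrees of freedom, with Benjamini-Hochberg adjustment over 14169 genes and a threshold of 0.05. The fit was tested on simulated data. Motifs and figures used Python 3.11.15, pandas 2.3.3 and matplotlib 3.10.9.

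Members and lists were chosen with earlier results of these data known. Every member is accounted for, and values on each array are given for those whose Spink3-/-XKI/+ and Spink3+/+ arrays did not overlap or whose unadjusted p was under 0.05, in part as differences. The lists are sterol enzymes, fatty acid enzymes, regulators, efflux genes, other pathway genes, and acinar, liver, fat, endocrine, macrophage, endothelial, erythroid and fibroblast markers; some genes of the pathway list are counted but not named. Alternatives changed the scaling, background correction, filter, probe choice, arrays in the fit, replicate block, slide row and outlier spots, or left out 1 array. Insig1 and Insig2 proteins, and promoters of 7 members, were not used here.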

Additional observations from a re-analysis of the deposited data

How the results depend on the processing

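No member was called in any of 17 other settings, 6 of which left out an array. The sterol median stayed below 0 in all 17, from -1.02 to -0.36 in Spink3-/-XKI/+ minus Spink3+/+ and from -0.90 to -0.37 in Spink3-/-XKI/+ minus Spink3-/-; in Spink3-/- minus Spink3+/+ it ran from -0.09 to 0.33. Spike-in scaling, chosen after seeing the data, moved the all-gene median to 0.11 in Spink3-/- minus Spink3+/+. The cause of the changes below was not tested. Each value rests on 2 arrays per genotype, and Cyp51, Scd1 and Mylip did not pass the filter on dim probes.

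In Spink3-/-XKI/+ minus Spink3+/+, limma called 3 genes with quantile normalization (2 higher, 1 lower), 2 with normexp and 0 with slide row as a block. The row block gave a sterol median of -1.02 and turned Pmvk to -0.30, Fasn to 0.55, Scd2 to 0.13, Me1 to -0.0073, Insig2 to 0.12 and Scap to -0.27. In Spink3-/- minus Spink3+/+, 1 gene was called with normexp, with no filter, with the filter on all arrays, with only the 2 groups compared and with slide row as a block, and 2 with the mean of a gene's probes; the row block turned Fdft1 to -0.21 and Stard4 to -0.11. In Spink3-/-XKI/+ minus Spink3-/-, 4 genes were called with quantile normalization (2 higher, 2 lower), 2 with spike-in scaling, 3 with slide row as a block, and 0 with normexp, with no filter, with the filter on all arrays and with only the 2 groups compared. There the sterol median was -0.37 with normexp and -0.90 with the row block, Insig2 was -0.19 with the mean of its probes, and Mvd was -0.34 with the row block.

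The replicate block gave 1 called gene in Spink3-/-XKI/+ minus Spink3+/+, 1 in Spink3-/- minus Spink3+/+ and 0 in Spink3-/-XKI/+ minus Spink3-/-, and no member was called. Same-numbered arrays deviated together with a correlation of 0.20 for Spink3-/-XKI/+ and Spink3-/-, 0.03 for Spink3-/-XKI/+ and Spink3+/+ and -0.06 for Spink3-/- and Spink3+/+. Such values over all genes cannot settle whether same-numbered arrays share more than a number.

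Leaving out each array in turn gave 1 to 2 called genes in Spink3-/-XKI/+ minus Spink3+/+, 1 to 6 in Spink3-/- minus Spink3+/+ and 0 to 3 in Spink3-/-XKI/+ minus Spink3-/-, where the sterol median ran from -0.90 (without Spink3-/- replicate 1) to -0.44. The fatty acid median ran from -0.21 (without Spink3+/+ replicate 1) to 0.26 in Spink3-/-XKI/+ minus Spink3+/+ and from 0.087 to 0.44 (without Spink3+/+ replicate 2) in Spink3-/- minus Spink3+/+. In Spink3-/-XKI/+ minus Spink3+/+, Acaca ran from -0.044 to 0.54 and Abca1 from -0.12 to 0.71. In Spink3-/-XKI/+ minus Spink3-/-, Mvd ran from -0.34 to 0.39, Lss from -1.15 to 0.0042 and Srebf1 from -0.61 to 0.52. In Spink3-/- minus Spink3+/+, the ranges were -0.053 to 0.53 for Hmgcs1, -0.54 to 0.20 for Mvd, -0.036 to 1.08 for Idi1, -0.21 to 0.33 for Fdft1, -0.30 to 0.38 for Sqle, -0.62 to 0.54 for Lss, -0.54 to 0.082 for Tm7sf2, -0.13 to 0.71 for Msmo1, -0.37 to 0.25 for Dhcr7, -0.032 to 0.56 for Acaca, -0.15 to 0.32 for Elovl6, -0.11 to 0.57 for Stard4 and -0.27 to 0.56 for Abca1. The remaining 1013 and 540 member values, without and with an array left out, kept their direction or, uncalled, moved by no more than 1 SE. Part of them come from settings that cannot move a difference. Their sizes were less stable: over the 17 settings, 28 of the 31 tested members moved by over 1.5 times or changed sign in at least 1 setting in Spink3-/-XKI/+ minus Spink3+/+, 23 in Spink3-/-XKI/+ minus Spink3-/- and 31 in Spink3-/- minus Spink3+/+. In Spink3-/-XKI/+ minus Spink3+/+, Srebf1 ran from 0.29 (normexp) to 1.44 (without Spink3-/-XKI/+ replicate 1), Idi1 from -1.63 to -0.52, Dhcr7 from -1.40 to -0.39 (normexp), Nsdhl from -0.81 to -0.12 (normexp) and Hmgcs1 from -0.76 to -0.18.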
